A study of Mus musculus with 16 samples.

Results

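The genes described are those for the proteins of the cytosolic ribosome in mouse. They were taken from the count table by symbol alone: Rpl or Rps followed by a digit, or Rpsa, Rplp0, Rplp1 or Rplp2, leaving out pseudogene symbols with -ps and the Rps6k kinases. The rule found 90 of 26357 genes, spread over 19 chromosomes. Of these, 77 encode core subunits, 12 are paralogs or copies of core genes, and Rps19bp1 matches by symbol but encodes a protein that binds Rps19 and is no subunit. A filter on low counts kept 85 of the 90 and 14671 of the 26357.

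RNA was sequenced from 16 mouse samples in a study of psoriasis-like skin inflammation driven by IL-23. Mice received the cytokine IL-23 or its vehicle, and each agent was combined with a drug vehicle holding 0 mpk of compound, given per os (oral) or intraperitoneally. The 4 groups are therefore vehicle oral, IL-23 oral, vehicle intraperitoneal and IL-23 intraperitoneal, with n = 4 libraries each, named here by the number that opens each title. The labels name no tissue, strain, age, sex or harvest day. Total counts ran from 6381990 to 14432930 per library. The labels do not say that the 4 samples of a group came from separate animals, so the p-values may rest on technical spread alone.

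A ribosome has a small subunit, which reads the mRNA, and a large subunit, which joins amino acids. Each is built in the nucleolus from ribosomal RNA and imported proteins that are made in near equal amounts. Most ribosomal protein mRNAs begin with a C and a run of pyrimidines, the 5′ terminal oligopyrimidine (TOP) element, through which the kinase complex mTORC1 and the RNA-binding protein Larp1 control their translation. Fast growing tissue, such as regenerating epidermis, needs many new ribosomes.

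The starts of several members are shown because they differ in whether this element lies at the annotated start. The RefSeq promoter table of GRCm38.p6 held a start for 68 of the 90 genes; Rpl8 and Rplp1 are not among them. Each sequence holds the 20 bases before the annotated start and the first 10 transcribed bases, 5′ to 3′ on the transcribed strand, with the longest run of C and T that reaches within 10 bases of the start in capitals. Shorter runs stay in lower case, and the marked run can go on past the printed bases, as in Rpl3l. The first 6 have a C at the start followed by at least 4 more pyrimidines, and the last 5 do not.

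Rplp2 (chr7:141447631-141447660, plus strand): cccactgcgtcagcgTCTTCCTTTCgccgc
Rps6 (chr4:86857358-86857387, minus strand): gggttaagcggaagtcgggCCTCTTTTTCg
Rps10 (chr17:27635235-27635264, minus strand): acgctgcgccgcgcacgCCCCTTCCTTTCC
Rps18 (chr17:33955656-33955685, minus strand): acttatacgtcacttccgCTCTCTCTTCCa
Rps27 (chr3:90213639-90213668, minus strand): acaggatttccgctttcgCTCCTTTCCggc
Rpl35 (chr2:39005122-39005151, minus strand): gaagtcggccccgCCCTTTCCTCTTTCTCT
Rpl41 (chr10:128549159-128549188, minus strand): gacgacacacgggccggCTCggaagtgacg
Rpl22l1 (chr3:28805488-28805517, plus strand): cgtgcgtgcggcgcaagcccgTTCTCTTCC
Rpl36al (chr12:69184058-69184087, minus strand): gttcgcaTTCCCgtcgctcaggttcagttc
Rpsa (chr9:120127746-120127775, plus strand): tggctgtgggttatttaaggacgtcaTTTC
Rpl3l (chr17:24727806-24727835, plus strand): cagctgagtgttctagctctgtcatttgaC

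Such a start was annotated for 15 of the 68 member genes (22.1%) and for 813 of all 27025 genes in the table (3.01%). A run of at least 8 pyrimidines within 10 bases of a start was found for 30 of the 68 members (44.1%) and for 16.1% of all genes. In the promoter windows, searched on both strands, CCGGAAG, the core letters bound by ETS factors, was present in 26 of the 68 members (38.2%) and in 9.93% of all genes. CACGTG, the E-box letters bound by MYC with MAX, was present in 6 of the 68 (8.82%) and in 8.09% of all genes. These are matches of letters at annotated starts, which may lie some bases away from the starts used in these samples.

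Ribosomal protein genes were higher in the IL-23 libraries than in the vehicle libraries in both routes. Levels are in CPM, the count of a gene as its part of a library total that was corrected with a TMM factor and set to the same size for every library. Summed over the 90 genes, the vehicle oral libraries lay between 11831 and 14499 CPM, and the IL-23 oral libraries between 19234 and 21612 CPM. The vehicle intraperitoneal libraries lay between 11830 and 13382 CPM, and the IL-23 intraperitoneal libraries between 15527 and 22377 CPM. The agents did not overlap in either route. The mean sum was 13610 ± 1252 CPM in vehicle oral and 20250 ± 1018 CPM in IL-23 oral (SD, n = 4 each), a ratio of 1.49. It was 12655 ± 655 CPM in vehicle intraperitoneal and 18090 ± 2987 CPM in IL-23 intraperitoneal (SD, n = 4 each), a ratio of 1.43. As a plain share of all counts, without the TMM factor, the genes took 1.45%, 1.88%, 1.37% and 1.67% in the same order, and the ratios were 1.30 and 1.22. In whole tissue, more RNA per cell and more cells of a type rich in these mRNAs cannot be told apart.

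**Figure D1:**
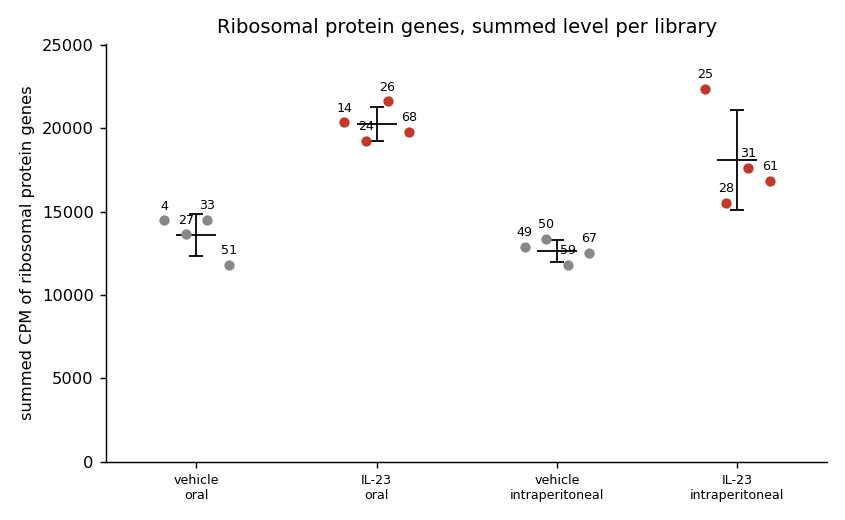
Summed CPM of the 90 ribosomal protein genes in each of the 16 libraries, by group; points are libraries with their numbers, and bars are the mean and SD of 4 libraries. The 8 vehicle libraries lie between 11830 and 14499 CPM and the 8 IL-23 libraries between 15527 and 22377 CPM.

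In the oral groups, 67 of the 85 tested genes were higher with IL-23 and 1, Rpl3l, was lower, by edgeR's quasi-likelihood test at an adjusted p of 0.05. Of all genes tested in that comparison, 29.2% were higher and 34.0% were lower. The median log2 fold change of the members was 0.64, and that of all genes was -0.06. In the intraperitoneal groups, 56 of the 85 were higher and 1, again Rpl3l, was lower, beside 30.8% higher and 30.9% lower among all genes. The median was 0.48 for the members and -0.02 for all genes. As the mean of both routes, 74 members were higher and 1 was lower, with a background of 34.9% higher. The groups did not overlap, with IL-23 above vehicle, for 63 members in the oral route and 42 in the intraperitoneal route; the same held for 27.9% and 25.1% of all genes tested. The reverse held for Rpl3l alone in each route, and for 31.8% and 25.9% of all genes.

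How the libraries are scaled sets how large these differences are. With plain library sizes the median of all genes moved to -0.26 in the oral route and to -0.23 in the intraperitoneal route, and that of the members to 0.44 and 0.26. The members' distance from all genes was then close to that with TMM factors, while 53 and 38 members were called higher, against backgrounds of 20.1% and 19.6%. Transcript length moved with the result as well. The members' median transcript had 775 bases and that of the other genes 2916. Among 828 other genes of at most 1000 bases, 51.9% were higher in the oral route and 49.9% in the intraperitoneal route, with median log2 fold changes of 0.39 and 0.33. Among the 59 members of at most 1000 bases, 79.7% and 71.2% were higher, with medians of 0.67 and 0.52. In an alternative fit added after the data were seen, each library's trend with transcript length, drawn from the other genes, was taken out. Then 39 of 83 members with a length (47.0%) were higher in the oral route, with a median of 0.36 and a background of 33.1%. Intraperitoneally, 31 of 83 (37.3%) were higher, with a median of 0.25 and a background of 34.5%, so that this share lay near its background. There, 2 members were lower, Rpl3l and Rpl23a, with a background of 27.0%. As the mean of both routes 47 were higher and the same 2 were lower, beside 39.3% and 33.8% of all genes. What makes log2 fold changes follow transcript length here was not tested.

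**Figure D2:**
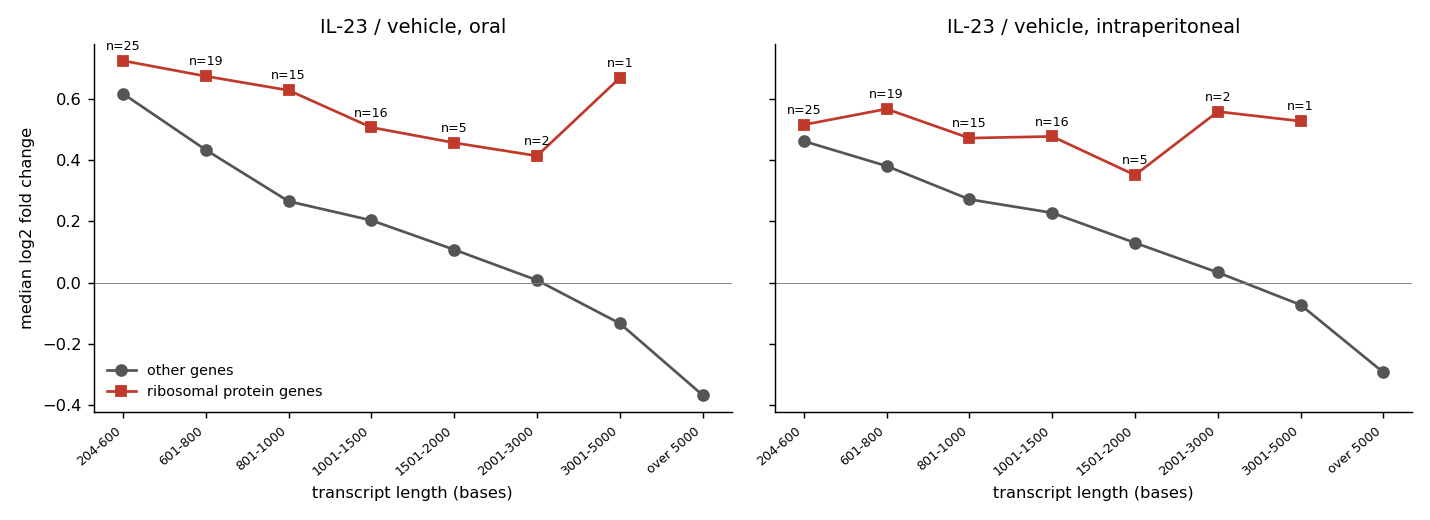
Median log2 fold change, IL-23 over vehicle, against transcript length in bases, for ribosomal protein genes (squares, with the number of genes) and all other tested genes (circles), in each route. Other genes fall from positive medians at short lengths to negative ones above 5000 bases, and the squares lie above the circles at each length where both are drawn, although the bins of 1 to 5 members are thinly filled.

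Before any correction for length, the rise was shared by both subunits, beside 29.2% higher among all genes in the oral route and 30.8% intraperitoneally. With the length trend taken out, 39 and 31 of 83 members of all classes were higher, beside 33.1% and 34.5% of all genes. The intraperitoneal share then lay near its background. The counts by class that follow are from the fit without that step. The stalk, 3 acidic proteins of the large subunit that recruit elongation factors, rose in 3 of 3 genes in the oral route and 2 of 3 in the intraperitoneal route, with median log2 fold changes of 0.84 and 0.74. Of the other large subunit genes, 31 of 42 and 24 of 42 rose, with medians of 0.58 and 0.48. Of the small subunit genes, 26 of 31 and 23 of 31 rose, with medians of 0.72 and 0.53. The ratio of summed small subunit CPM to summed large subunit CPM, stalk included, was 0.726 ± 0.0028 in vehicle oral, 0.748 ± 0.013 in IL-23 oral, 0.722 ± 0.0051 in vehicle intraperitoneal and 0.725 ± 0.0098 in IL-23 intraperitoneal (SD, n = 4 each). In the oral route every IL-23 library had a higher ratio than every vehicle library, and in the intraperitoneal route the groups overlapped; the difference was not tested.

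Rplp2 moved the most in the stalk. It stood at 335, 417, 434 and 476 CPM in vehicle oral and at 769, 891, 945 and 1023 CPM in IL-23 oral. In the intraperitoneal route it stood at 351, 367, 415 and 420 CPM with vehicle and at 662, 694, 806 and 939 CPM with IL-23. No IL-23 library came down to a vehicle level in either route. The log2 fold change was 1.13 ± 0.13 (SE, adjusted p = 1.25e-06, edgeR) in the oral route and 0.997 ± 0.127 (adjusted p = 5.29e-06) in the intraperitoneal route. With the length trend taken out it was 0.88 and 0.79.

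Its dimer partner Rplp1 was the most abundant member per length, at 2601 CPM per kb of transcript over all libraries. It read 833, 1007, 1044 and 1061 CPM in vehicle oral and 1626, 1656, 1663 and 2102 CPM in IL-23 oral, where library 26 is the high one. With vehicle intraperitoneal it read 852, 888, 891 and 1023 CPM, and with IL-23 1233, 1325, 1374 and 2189 CPM, where library 25 is the high one. The groups were apart in both routes, at log2 fold changes of 0.84 ± 0.15 and 0.74 ± 0.15 (SE, adjusted p = 0.000171 and 0.000536, edgeR), which were both 0.40 with the length trend taken out (adjusted p = 0.00362 and 0.00404). Rplp0, which anchors the dimers to the ribosome, had a smaller change: from 903 to 1082 CPM in vehicle oral against 1219 to 1245 CPM in IL-23 oral, a log2 fold change of 0.28 ± 0.10 (SE, adjusted p = 0.0260). That call was lost without library 27 or 51 (adjusted p = 0.0519 and 0.0554) and with the length trend taken out (0.13, adjusted p = 0.230). Its intraperitoneal groups overlapped, and the log2 fold change of 0.24 did not pass the test (adjusted p = 0.0576). Without library 28 it was 0.34 (adjusted p = 0.00568), and without library 25 it was 0.13 (adjusted p = 0.239).

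Rpl8, which lies next to the site where peptide bonds form, had the most counts of all members, with 207657 over the 16 libraries. It read 997, 1167, 1186 and 1225 CPM in vehicle oral and 1701, 1817, 1852 and 1972 CPM in IL-23 oral. The intraperitoneal values were 1003, 1078, 1098 and 1132 CPM with vehicle and 1510, 1567, 1657 and 1910 CPM with IL-23. The libraries of the agents were far apart in both routes, with log2 fold changes of 0.68 ± 0.09 and 0.62 ± 0.09 (SE, adjusted p = 8.87e-06 and 2.57e-05, edgeR). They were 0.40 and 0.39 with the length trend taken out.

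Rpl4, which lines the tunnel through which the new protein leaves, rests on 183810 counts and changed little. It read 1051, 1225, 1270 and 1306 CPM in vehicle oral and 1196, 1308, 1313 and 1384 CPM in IL-23 oral. With vehicle intraperitoneal it read 1036, 1106, 1111 and 1131 CPM, and with IL-23 1127, 1223, 1225 and 1620 CPM. The groups overlapped in both routes. The log2 fold changes of 0.10 ± 0.11 and 0.25 ± 0.11 (SE) did not pass the test (adjusted p = 0.423 and 0.0540, edgeR); without library 28 the latter was 0.33 (adjusted p = 0.0143), and without library 25 it was 0.12 (adjusted p = 0.234). As the mean of both routes Rpl4 was called higher, at 0.17 (adjusted p = 0.0470). The errors of Rpl8 and Rpl4 are of like size.

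Rpl41, the shortest protein of the large subunit, had among the largest changes of the well measured members. Vehicle oral libraries read 86.7, 88.9, 89.0 and 99.4 CPM, and IL-23 oral libraries 179, 215, 222 and 246 CPM. Vehicle intraperitoneal libraries read 76.3, 83.7, 84.1 and 98.3 CPM, and IL-23 intraperitoneal libraries 121, 132, 163 and 242 CPM. The groups did not overlap, and the IL-23 intraperitoneal group was spread over a wide range. The log2 fold changes were 1.24 ± 0.17 and 0.94 ± 0.17 (SE, adjusted p = 6.67e-06 and 0.000123, edgeR). Rpl9 had the largest fitted oral change, 1.35 ± 0.26, but rests on 571 counts in all libraries, and its intraperitoneal change of 0.57 did not pass the test (adjusted p = 0.0702). Rpl27, with 595 counts, had the largest intraperitoneal change, 1.51 ± 0.19, beside 0.80 ± 0.18 in the oral route, which was 0.42 and did not pass with the length trend taken out (adjusted p = 0.0677). Rpl9 and Rpl27 were singled out after their values were seen.

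**Figure D3:**
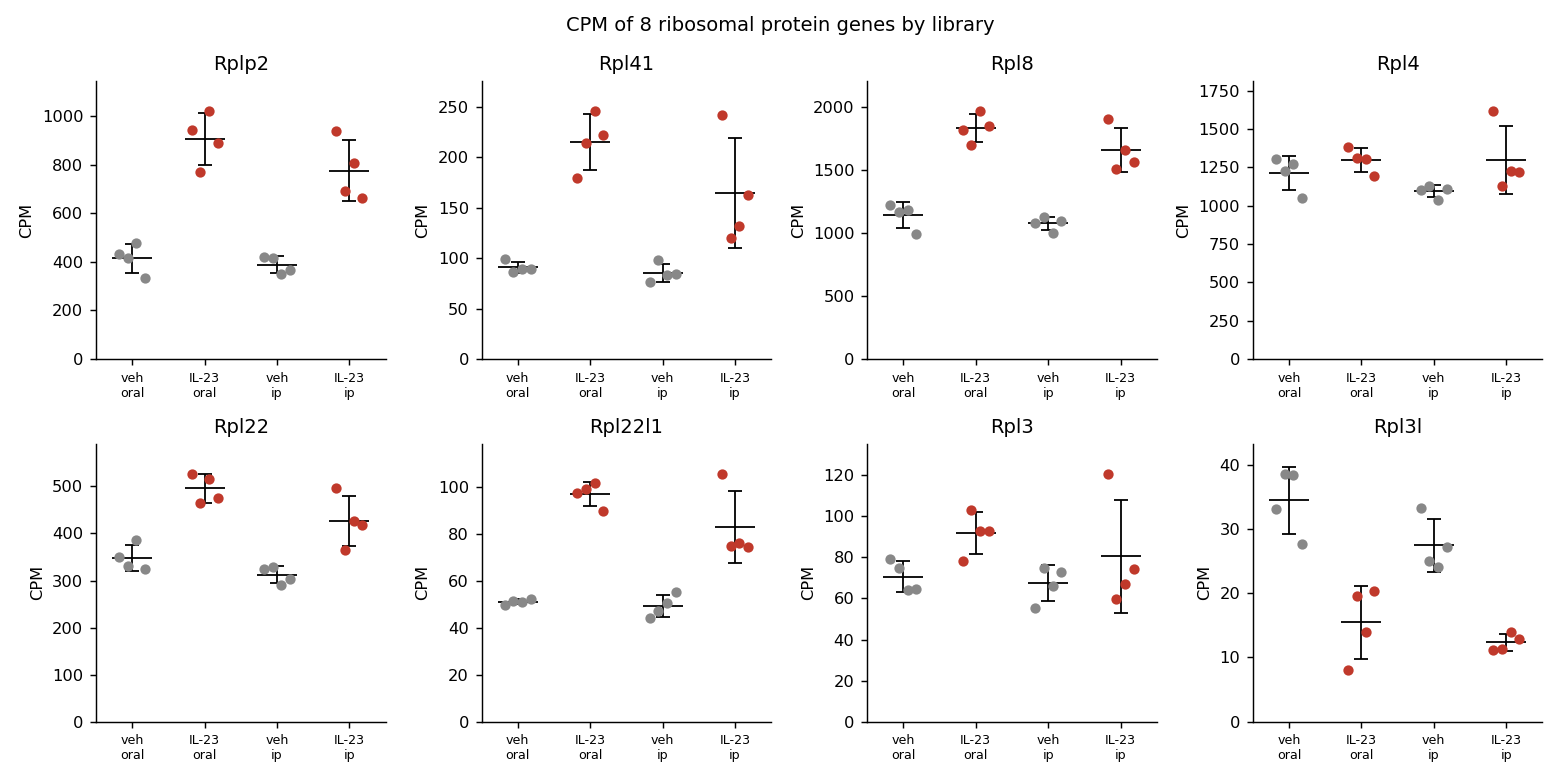
CPM of 8 ribosomal protein genes in each library (points), with the mean and SD of 4 libraries per group; veh is vehicle, ip is intraperitoneal, and each panel has its own scale from 0. Rplp2, Rpl41, Rpl8, Rpl22 and Rpl22l1 are higher with IL-23 in both routes without overlap, Rpl4 and Rpl3 overlap, and Rpl3l is lower.

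In the small subunit, Rpsa, which also serves as a laminin-binding protein, passed the test in the oral route alone. It read 15.2, 18.2, 18.4 and 18.8 CPM in vehicle oral and 30.0, 35.1, 38.4 and 41.0 CPM in IL-23 oral. With vehicle intraperitoneal it read 15.6, 15.7, 15.8 and 21.5 CPM, and with IL-23 14.8, 19.6, 24.6 and 28.4 CPM. Only the oral groups were apart, with a log2 fold change of 1.03 ± 0.17 (SE, adjusted p = 4.84e-05, edgeR), against 0.35 ± 0.17 (adjusted p = 0.0842) in the intraperitoneal route. Without library 28 the intraperitoneal change was 0.53 (adjusted p = 0.00544), without vehicle library 50 it was 0.47 (adjusted p = 0.0293), and without library 25 it was 0.21 and did not pass. The difference between the routes did not pass the test described below.

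Rps10, which sits near the mRNA entry and is ubiquitinated when ribosomes collide, had the same order of routes. It lay between 73.0 and 90.8 CPM in vehicle oral and between 131 and 150 CPM in IL-23 oral, a log2 fold change of 0.72 ± 0.09 (SE, adjusted p = 2.74e-06, edgeR). In the intraperitoneal route it lay between 74.7 and 87.7 CPM with vehicle and between 88.0 and 108 CPM with IL-23, a log2 fold change of 0.34 ± 0.09 (adjusted p = 0.00298). The oral change was 0.36 with the length trend taken out (adjusted p = 0.000594), and the intraperitoneal one was 0.07 and did not pass (adjusted p = 0.470). The groups were apart in both routes, by a narrow gap in the intraperitoneal one.

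Rps6, the substrate of the S6 kinases downstream of mTORC1, stood at 11.9, 13.1, 14.0 and 15.6 CPM in vehicle oral and at 18.5, 19.2, 19.2 and 19.3 CPM in IL-23 oral, without overlap. In the intraperitoneal route it stood at 11.5 to 14.3 CPM with vehicle and 12.1 to 22.2 CPM with IL-23, with overlap. The log2 fold changes were 0.48 and 0.43 (adjusted p = 0.0153 and 0.0301, edgeR). Both calls were lost with the length trend taken out, at 0.21 and 0.20 (adjusted p = 0.228 and 0.251), and the intraperitoneal change was 0.28 without library 25 (adjusted p = 0.133). Rps27a, which is made as a fusion with ubiquitin, was at 1.93 to 3.53 CPM in vehicle oral and 4.25 to 9.03 CPM in IL-23 oral, with log2 fold changes of 1.08 and 0.84 in the routes (adjusted p = 0.00602 and 0.0310). Its intraperitoneal call was lost without library 25, at 0.53 (adjusted p = 0.153), and with the length trend taken out, at 0.54 (adjusted p = 0.117). Rps19 and Rps14, both tied to inherited or acquired failure of red cell production when 1 copy is lost, rose by 0.45 and 0.52 in the oral route and by 0.37 and 0.36 in the intraperitoneal route. Those 4 changes passed the test and none of their groups overlapped. None of the 4 passed with the length trend taken out: Rps19 was at 0.09 in both routes (adjusted p = 0.230 and 0.215), and Rps14 at 0.14 and 0.06 (adjusted p = 0.114 and 0.511).

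The paralogs did not move as one. Of the 8 tested, 6 rose in each route, beside 29.2% and 30.8% of all genes. Rpl3l fell in each route, and Rpl39l passed in neither. Rpl3l replaces Rpl3 in ribosomes of heart and skeletal muscle. It stood at 27.6, 33.2, 38.4 and 38.6 CPM in vehicle oral and at 8.05, 14.0, 19.6 and 20.3 CPM in IL-23 oral. In the intraperitoneal route it stood at 24.1, 25.1, 27.2 and 33.3 CPM with vehicle and at 11.2, 11.3, 12.9 and 13.9 CPM with IL-23. Every IL-23 library was below every vehicle library, at log2 fold changes of -1.14 ± 0.20 and -1.15 ± 0.21 (SE, adjusted p = 0.000131 and 0.000167, edgeR). It remained lower when each library was left out in turn and with each scaling tried.

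Markers of skeletal muscle moved with Rpl3l. All 10 genes of that list were lower as the mean of both routes, beside 38.7% of all genes, with a median log2 fold change of -1.22. Their summed level was 4167 to 6876 CPM in vehicle oral and 1447 to 2752 CPM in IL-23 oral. In the intraperitoneal route it was 3222 to 4322 CPM with vehicle and 1730 to 1946 CPM with IL-23. The part of these markers in the result was not tested. Rpl3 itself, found in most tissues, read 64.0 to 79.4 CPM in vehicle oral and 78.0 to 103 CPM in IL-23 oral, and 55.6 to 74.9 against 59.9 to 121 CPM in the intraperitoneal route. The groups overlapped, and its log2 fold changes of 0.38 and 0.26 did not pass the test (adjusted p = 0.0594 and 0.201, edgeR). As the mean of both routes Rpl3 was called higher, at 0.32 (adjusted p = 0.0244). On a per length scale, Rpl3l stood at 16.3 CPM per kb and Rpl3 at 57.4 CPM per kb over all libraries, although 85.6% of the Rpl3 transcript is shared with other annotated genes, as described below.

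Rpl22l1 and its partner Rpl22, RNA-binding proteins that can replace each other, both rose. Rpl22l1 stood at 49.9, 50.9, 51.5 and 52.2 CPM in vehicle oral and at 90.0, 97.5, 99.3 and 102 CPM in IL-23 oral. In the intraperitoneal route it stood at 44.2 to 55.3 CPM with vehicle and at 74.4, 74.9, 76.0 and 106 CPM with IL-23, the last being library 25. Neither route showed overlap, and the log2 fold changes were 0.93 ± 0.10 and 0.74 ± 0.10 (SE, adjusted p = 9.32e-07 and 1.16e-05, edgeR). Rpl22 went from 324 to 387 CPM in vehicle oral to 465 to 527 CPM in IL-23 oral, with log2 fold changes of 0.51 and 0.45 in the routes (adjusted p = 0.000122 and 0.000434). With the length trend taken out, Rpl22l1 kept 0.52 and 0.42 (adjusted p = 0.000106 and 0.000795), while Rpl22 was at 0.06 and 0.11 and did not pass (adjusted p = 0.433 and 0.177).

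Rpl36al, a copy of Rpl36a, rose from 24.3 to 29.8 CPM in vehicle oral to 50.7 to 69.7 CPM in IL-23 oral, with log2 fold changes of 1.14 and 0.86 (adjusted p = 4.80e-05 and 0.000791, edgeR). Rpl36a itself was at or below 1.82 CPM in each library. Its log2 fold change passed the test in the intraperitoneal route, at 1.06 (adjusted p = 0.0280; 0.72 and 0.126 with the length trend taken out), and not in the oral route, at 0.34 (adjusted p = 0.437). Rpl7l1, which belongs to precursors of the large subunit, rose by 0.42 and 0.47, and its partner Rpl7 by 0.33 and 0.48. Rps4l rose by 0.56 and 0.46, and its X-linked partner Rps4x by 0.31 and 0.56. The intraperitoneal call of Rps4l was lost without library 25, at 0.29 (adjusted p = 0.0763), and the oral call of Rps4x with the length trend taken out, at 0.07 (adjusted p = 0.585), as was the oral call of Rpl7, at 0.14 (adjusted p = 0.123). Rpl37rt, a copy named here after its values were seen, rose by 0.76 and 0.78.

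Rps27l, a paralog of Rps27 known as a target of p53, had the smallest change among the members called within each single route. It was at 72.7 to 79.9 CPM in vehicle oral and 86.7 to 88.8 CPM in IL-23 oral, with log2 fold changes of 0.22 in both routes (adjusted p = 0.00826 and 0.00785, edgeR). Its sign turned with the length trend taken out, to -0.22 and -0.10 (adjusted p = 0.0637 and 0.411). Rps27 was at 1.20 to 3.93 CPM over all libraries, with log2 fold changes of 0.82 and 0.62 (adjusted p = 0.00522 and 0.0301), and with the length trend taken out both calls were lost, at 0.28 and 0.23 (adjusted p = 0.320 and 0.417). Rpl39l, known from testis, read 0.829 to 8.57 CPM, its groups overlapped, and its log2 fold changes of 0.62 and 0.31 did not pass (adjusted p = 0.277 and 0.634). Rps19bp1, the binding partner of Rps19 that is no subunit, rose by 0.56 and 0.48 (adjusted p = 0.000554 and 0.00240). The members that did not pass the count filter were Rpl39, with 17 counts in the 16 libraries, Rpl6l with 46, Rpl32l with 38, Rps27rt with 9 and Rpl10l with 1.

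Rpl10, which joins the large subunit last, had 1885 counts and lay between 9.60 and 11.5 CPM in vehicle oral and between 15.1 and 19.3 CPM in IL-23 oral, a log2 fold change of 0.71 (adjusted p = 0.00235, edgeR). In the intraperitoneal route it lay between 6.40 and 12.4 CPM with vehicle and between 13.4 and 19.5 CPM with IL-23, a log2 fold change of 0.82 (adjusted p = 0.000888). The groups were apart in both routes.

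**Figure D4:**
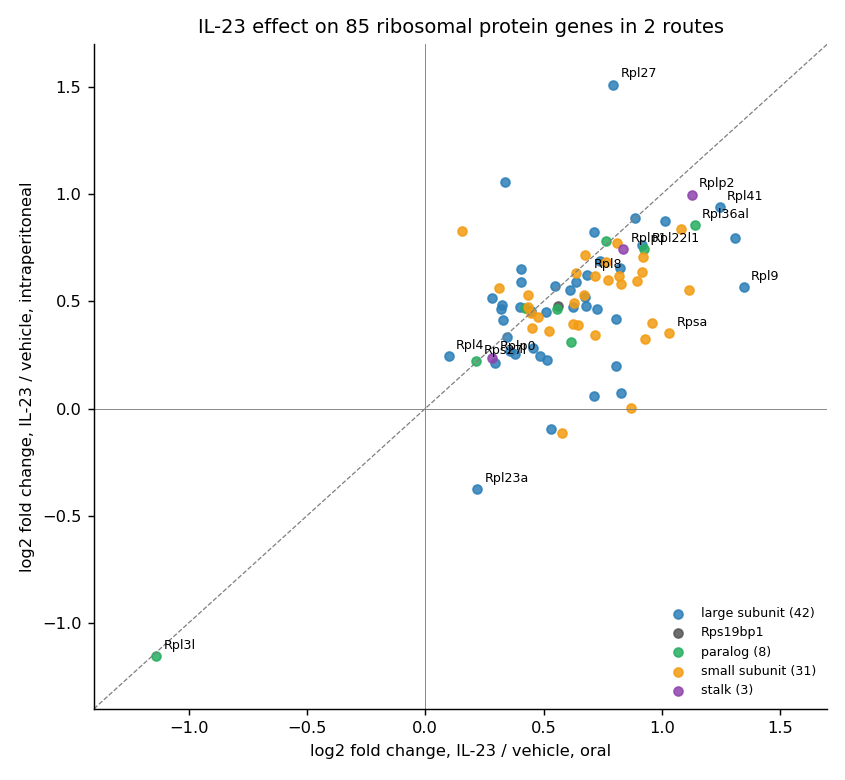
Log2 fold change, IL-23 over vehicle, in the oral route (x) against the intraperitoneal route (y) for the 85 tested genes, coloured by class; the dashed line marks equal change. Most points lie in the upper right, 63 of 85 lie below the line, and Rpl3l is alone at the lower left.

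The change in the oral route was numerically above that in the intraperitoneal route for 63 of the 85 members, which share libraries and are not independent. Of the members, 54 were higher in both routes, 13 passed in the oral route alone, 2 in the intraperitoneal route alone, 15 in neither, and Rpl3l was lower in both. Of all genes tested, 25.9% were higher in both routes, 3.36% in the oral route alone and 4.93% in the intraperitoneal route alone, 28.3% passed in neither and 27.4% were lower in both. Passing in 1 route does not show a difference between them. The test of that difference called 0 of the 85 members by edgeR, and DESeq2 and limma-voom called 0 as well. By edgeR it called 0.0% of all genes. The members' median difference, intraperitoneal minus oral, was -0.12, and that of all genes was 0.03. Between the vehicle groups of the routes, edgeR called 0 members and 0.0% of all genes, and DESeq2 and limma-voom called 0 members. Between the IL-23 groups, edgeR called 0 members and 0.0% of all genes, and limma-voom called 0 members. DESeq2 called 2 members lower in the intraperitoneal group, Rpsa by -0.74 and Rps10 by -0.45 (adjusted p = 0.0163 and 0.00477), beside 0.0818% of all genes. Across the 85 members the log2 fold changes of the routes had a Pearson r of 0.60 and a Spearman rho of 0.47, as a description over genes that share libraries and are not independent; without Rpl3l, r was 0.41.

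A pair of libraries set the spread of the IL-23 intraperitoneal group. In library 25, 74 of the 85 members were above their group mean, by 0.35 on the log2 scale on average, and its sum was the highest of all 16 libraries. In library 28, 11 of the 85 were above the group mean, and the mean deviation was -0.24. The other genes of at most 1000 bases deviated by 0.14 in library 25 and by -0.08 in library 28. Library 28 also had a summed myeloid marker level of 1014 CPM, against 166 to 270 CPM in the other 3 libraries of its group, and 2919 CPM of fibroblast markers against 752 to 1114 CPM; library 25 had the highest keratinocyte marker sum, 70736 CPM. The part of these in the result was not tested. Without library 28, 68 members were higher in the intraperitoneal route beside 30.5% of all genes; without library 25, 49 were higher, beside 29.1%. Of the 67 members higher in the oral route, 60 were called without each library in turn, and of the 56 in the intraperitoneal route, 46 were, beside 25.1% and 25.3% of all genes. Leaving out 1 library ended calls of members described above. In the oral route these were Rplp0 (library 27 or 51) and Rps4x (4 or 14). Intraperitoneal calls ended for Rps6 (25, 31, 49, 59 or 67), Rps27a (25, 49, 59 or 67), Rpl36a (50, 61 or 67), Rps27 (28, 31 or 67) and Rps4l (25). With plain library sizes Rplp0, Rps6, Rpl7, Rps4x and Rps27l no longer passed in the oral route, nor did Rps10, Rps6, Rps14, Rps27, Rps27a, Rps27l, Rpl36a and Rps4l in the intraperitoneal route.

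The members differ in how much of their transcript sequence occurs in other genes too. These families have many processed copies in the genome, and how reads with several matches were counted is not given in the sources used here. For the 77 core genes, the share of 50-base windows of the transcript that also occur in another gene of the GENCODE vM21 annotation was found, and this share and the level per length ran opposite ways, with a Spearman rho of -0.53 across genes. Rpl8, with 7.86% of windows shared, stood at 1680 CPM per kb, and Rps3, at the mRNA entry, with 2.96% shared, at 572 CPM per kb. Rpl5, part of the particle that carries 5S ribosomal RNA, with 93.8% shared, stood at 0.911 CPM per kb, and Rps27, with 98.6% shared, at 7.32 CPM per kb. Other genes went against the pattern: Rps18, with 86.7% shared, stood at 277 CPM per kb, Rpl21, with 26.2% shared, at 3.77 CPM per kb, and Rpl39, with 16.5% shared, at 0.167 CPM per kb, the lowest of the core genes. Rplp1, the highest, has 60% shared. The part of shared sequence in these levels was not tested.

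The IL-23 difference was of like size at low and high shares. Of all genes tested, 29.2% were higher in the oral route and 30.8% in the intraperitoneal route. Among the 12 tested members with under 25% of windows shared, 9 were higher in each route, and the median log2 fold changes were 0.54 and 0.46. Among 49 members with 25% to 75% shared, 44 and 33 were higher, with medians of 0.72 and 0.55. Among 22 members with over 75% shared, 12 were higher in each route, with medians of 0.60 and 0.48. By level, 32 and 30 of 33 members with a mean of at least 100 CPM were higher, with medians of 0.63 and 0.53. Of 24 members under 10 CPM, 11 and 9 were higher, with medians of 0.74 and 0.56. The count of 9 lay near the share of all genes in the intraperitoneal route. Level and shared sequence ran together, with a median of 14.1 CPM per kb in members with over 75% shared and 237 CPM per kb in those with under 25%, so that these strata do not separate them. The 33 pseudogene symbols with -ps that the rule leaves out summed to 24.6 CPM in vehicle oral and 35.0 CPM in IL-23 oral, a ratio of 1.42, and the ratio was 1.32 in the intraperitoneal route.

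**Figure D5:**
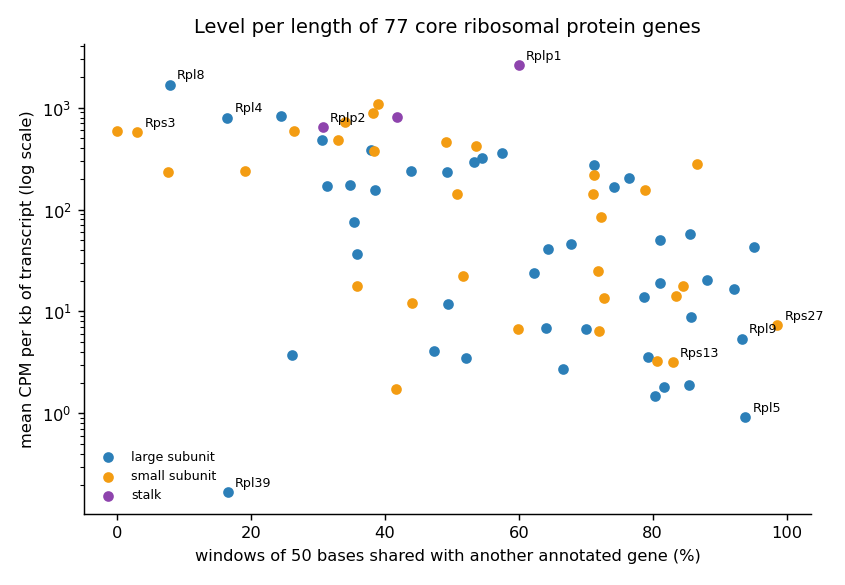
Mean CPM per kb of transcript over all 16 libraries (log scale) against the percentage of 50-base windows that a core ribosomal protein gene shares with another annotated gene, for 77 genes coloured by class. Levels are spread from 0.167 CPM per kb in Rpl39 to 2601 in Rplp1, and genes with over 75% of windows shared lie at or below 277 CPM per kb.

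Members with and without the annotated TOP start were mostly higher, beside 29.2% of all genes in the oral route and 30.8% in the intraperitoneal route. The 13 tested members with such a start had median log2 fold changes of 0.76 in the oral route and 0.58 in the intraperitoneal route, and 12 and 10 of them were higher. The other 51 with a start in the table had medians of 0.67 and 0.52, and 40 and 32 were higher. The difference was not tested. Rplp2, printed above with the element, and Rpl41, Rpl36al and Rpl22l1, printed without it at the annotated base, were among the larger changes. The TOP element is known for its part in translation, which RNA levels do not show.

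Genes that make or use ribosomes were mostly higher too, given here as the mean of both routes, where 34.9% of all genes were higher and 38.7% lower. Rack1, which encodes a small subunit protein under another symbol, was higher, from 808 ± 75 CPM in vehicle to 1154 ± 143 CPM in IL-23 (SD, n = 8 each). It is of a list of ribosomal proteins outside the symbol rule, of which 3 of 3 tested were higher. With the length trend taken out, 1 of these 3 was higher, beside 39.3% of all genes. Ribosome assembly factors were 55 of 56 higher and 1 lower, with a median log2 fold change of 0.60. Nhp2, of the particles that guide pseudouridylation of ribosomal RNA, rose by 1.45 ± 0.08, Eif6, which keeps immature large subunits from joining, by 1.38 ± 0.09, and Noc4l, of the small subunit precursor, by 1.15 ± 0.09 (SE, adjusted p = 1.34e-10, 1.56e-09 and 5.49e-09, edgeR). Translation initiation factors were 26 of 27 higher with a median of 0.57, among them Eif2b4 by 1.24 and Eif5a by 1.02. With the length trend taken out, assembly factors were 55 of 56 higher at a median of 0.63 and initiation factors 25 of 27 at 0.59.

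The next counts are again the mean of both routes, where 34.9% of all genes were higher and 38.7% lower. With the length trend taken out, these shares were 39.3% and 33.8%. Other genes with a TOP element were 14 of 19 higher and 1 lower, with a median of 0.38, and 13 higher and 1 lower with the length trend taken out. Npm1, the nucleolar chaperone, rose by 1.20 and the elongation factor subunit Eef1g by 1.01. Of RNA polymerase I genes, 10 of 15 were higher and 2 lower, but 11 higher and 0 lower with the length trend taken out. Of the dedicated ribosomal protein chaperones, 4 of 5 were higher, and 5 with the length trend taken out, with Grwd1, the chaperone of Rpl3, at 1.01. Genes of mTORC1 and of TOP mRNA control were split, 7 higher and 7 lower of 17, but 8 higher and 2 lower with the length trend taken out: the translation inhibitor Eif4ebp1 rose by 0.94, and Ddit4, an inhibitor of mTORC1, fell by 0.70. The MYC network was split as well, 5 higher and 4 lower of 10, the latter near the share of all genes. With the length trend taken out, 6 were higher and 3 lower. Mxd1, a MYC antagonist, rose by 1.65, and Mycl and Mycn fell by 1.83 and 1.75. Of the integrated stress response, 7 of 11 were higher and 2 lower, with asparagine synthetase, Asns, at 1.10. Of p53 and its targets, 6 of 12 were higher and 5 lower, with a median of 0.03, and 4 higher and 6 lower with the length trend taken out, with a median of -0.08.

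Markers of cell types moved in the same samples. Keratinocyte markers were 5 of 8 higher in the oral route and 6 of 8 in the intraperitoneal route. As the mean of both routes, 7 of 8 were higher and Krt15 lower, beside 34.9% higher and 38.7% lower among all genes. Their sum was 23380 to 31832 CPM in vehicle oral and 48865 to 55472 CPM in IL-23 oral. In the intraperitoneal route it was 26181 to 29856 CPM with vehicle and 38836 to 70736 CPM with IL-23. Markers of dividing cells, 5 of 5 higher, summed to 367 to 550 CPM in vehicle oral and 732 to 934 CPM in IL-23 oral, and to 391 to 524 against 747 to 1073 CPM in the intraperitoneal route. Of all genes tested, 29.2% were higher and 34.0% lower in the oral route, and 30.8% and 30.9% in the intraperitoneal route. Of myeloid markers 4 of 6 were higher in each route and 2 did not pass. Lyz2 overlapped between the agents, at 88.3 to 202 CPM in vehicle oral and 67.0 to 125 CPM in IL-23 oral. In the intraperitoneal route Lyz2 was at 147 to 197 CPM with vehicle and 62.9 to 667 CPM with IL-23. The myeloid sum overlapped too, at 143 to 286 against 166 to 263 CPM in the oral route. Intraperitoneally it was 229 to 283 against 166 to 1014 CPM. Of the 3 lymphoid markers tested, out of 6, 1 was higher in the oral route and 3 in the intraperitoneal route. Library 28, high in myeloid markers, also had a lymphoid sum of 33.2 CPM, against 9.78 to 15.9 CPM in the rest of its group. Of adipocyte markers 5 of 5 were lower in each route, and of cartilage markers 2 of 4 were lower in the oral and 3 of 4 in the intraperitoneal route. Of fibroblast markers 3 of 5 were lower in the oral route, with a median of -0.86, and all 5 missed the threshold in the intraperitoneal route, with a median of -0.15. Without library 28, the mean fibroblast sum was 967 CPM in IL-23 intraperitoneal, against 1611 CPM in vehicle intraperitoneal. None of the keratinocyte or muscle markers was at 0 in a group. Their part in the rise of ribosomal protein genes was not tested.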

How the data were processed

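The deposited table holds raw read counts per gene, made by the authors from TruSeq Stranded Total RNA libraries, per the labels' protocols. Alignment with STAR to GRCm38 and counting with featureCounts (Subread 1.5.0) are named by the submitters' processing notes. Neither the annotation release, nor the strand setting, nor the treatment of reads with several matches is given there. Genes with a near-identical copy, and overlapping genes, are therefore uncertain as single genes.

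Counts were tested with edgeR 4.0.16 in R 4.3.3: TMM factors, filterByExpr (minimum count 10), a quasi-likelihood fit of 4 group means over 16 libraries (12 residual degrees of freedom), 2-sided contrasts, and Benjamini-Hochberg adjustment over 14671 genes. SE was derived from the fold change and the F statistic. The script was tested on simulated data. The members and 18 lists were chosen with earlier results of these data known, and no list was tested as a set. Members named are the 3 most abundant, Rplp0, Rplp1, Rplp2, Rpsa, Rps27a, Rps6, the paralogs with their partners, Rps19bp1, the 4 largest and 4 smallest called changes without overlap at 10 CPM or more per route, and those not tested; from each list, up to 3 called genes with the largest change. Some genes that this rule names are not reported here. Transcript lengths are of 1 principal transcript per gene in GENCODE vM21 (GRCm38), found for 86 members. Alternatives were RLE, upper-quartile and plain library size scaling, TMM factors without the members, no count filter, 1 CPM in 4 libraries, DESeq2 1.42.0, limma-voom 3.58.1, only the groups compared, each library left out and, added after the data were seen, the length trend taken out by a lowess curve (span 0.3). No replicate pair agreed within sampling noise. Counting error only is covered by count totals, since reads carry no molecular identifiers.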

Additional observations from a re-analysis of the deposited data

Results flagged for a closer look

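Of 124 groups of 4 CPM values of the named members, 8 held a value far from the other 3; chance alone sets about 1 in 20 such groups apart. In the IL-23 intraperitoneal group, library 25 was high for Rplp1, at 2189 CPM against 1233 to 1374 in the others, and for Rpl22l1, at 106 CPM against 74.4 to 76.0. In the IL-23 oral group, library 26 was high for Rplp1, at 2102 CPM against 1626 to 1663, and low for Rps6, at 18.5 CPM against 19.2 to 19.3. In the vehicle oral group, library 4 was high for Rpl10, at 11.5 CPM against 9.60 to 9.84, library 33 was high for Rps4x, at 86.1 CPM against 64.3 to 68.0, and library 51 was low for Rpsa, at 15.2 CPM against 18.2 to 18.8. In the vehicle intraperitoneal group, library 50 was high for Rpsa, at 21.5 CPM against 15.6 to 15.8.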

How the results depend on the processing

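No paired analysis was possible because no replicate number is shared between the groups. With the length trend taken out, 39 members were higher in the oral route, 31 in the intraperitoneal route and 47 as the mean of both; 2 were lower in the intraperitoneal route and 2 as the mean of both, Rpl3l and Rpl23a; the member medians were 0.36, 0.25 and 0.28, and Rps27l turned to -0.22 and -0.10. These fits hold 83 members and 13956 genes. With plain library sizes the medians were 0.44, 0.26 and 0.34. DESeq2 called 2 members lower between the IL-23 groups, where edgeR called 0. Leaving out each library in turn gave 63 to 70 members higher in the oral route, 48 to 68 in the intraperitoneal route and 70 to 76 as the mean of both, with 1, 1 to 2 and 1 lower; Rpl23a was the added one, at -0.60 without vehicle intraperitoneal library 49. Their medians ranged from 0.62 to 0.69, from 0.40 to 0.61 and from 0.49 to 0.63. For the difference between routes and the route effects, no member was called by edgeR without any library, and the medians ranged from -0.21 to -0.05, from -0.13 to -0.06 and from -0.34 to -0.16. For the named members alone (112 results), 2727 values under the alternatives kept direction and side of the threshold. In the same set, 104 no longer passed, 19 passed newly and 2 changed sign. The other members are outside these counts, and calls of some changed too. Rpl28, as an example, passed newly in the oral route by DESeq2 (adjusted p = 0.0313). Members with few counts have wide errors: the median SE of those under 10 CPM was 0.29 and of those of at least 100 CPM 0.11, in each route, so small changes of the former were not detectable at this depth.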

Other observations

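The proteins of the mitochondrial ribosome, encoded in the nucleus, were looked at as a list added after the data were seen. As the mean of both routes, 66 of 76 tested genes were higher with IL-23 and 0 were lower by edgeR, with a median log2 fold change of 0.47, beside 34.9% higher among all genes. With the length trend taken out, 55 were higher and 0 lower, with a median of 0.32, beside 39.3% higher and 33.8% lower among all genes. Mrpl12, which also binds the mitochondrial RNA polymerase, rose from 34.0 ± 2.9 CPM in vehicle to 70.4 ± 13.8 CPM in IL-23 (SD, n = 8 each). Its log2 fold change was 1.05 ± 0.10 (SE, adjusted p = 6.39e-08, edgeR). Mrpl33 rose by 0.97 and Mrps25 by 0.96.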
